A study of Mus musculus with 24 samples.

Results

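The chromatin regions described here were open mainly in Exc-CA3, the excitatory pyramidal neurons of hippocampal field CA3. Counts of transposase cuts from single-nucleus ATAC sequencing (snATAC-seq) were summed over 4 libraries for each of 6 groups of cell types and scaled to counts in every 1000000 of the group's total (CPM). A peak was a member when its Exc-CA3 level was at least 5 CPM and at least 3 times that of each of the other 5 groups, and 1227 of the 300776 peaks on chromosomes qualified (0.408%). The other groups were the CA1 pyramidal clusters (Exc-CA1), dentate granule cells (Exc-DG), the Inh-MGE interneurons, the Inh-CGE interneurons together with Inh-Lamp5 (called Inh-CGE here), and the non-neuronal cells (NN). These CPM values chose the members, so differences between cell groups at these peaks are given as a description, with no test. Counts were summed over nuclei, so more nuclei open at a peak and more cuts per open nucleus cannot be told apart.

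The tissue was ventral hippocampus, taken from males of 2 inbred mouse strains, C57BL/6J (B6) and DBA/2J (D2), aged 10 to 16 weeks. Each assay used here, snATAC-seq and single-nucleus RNA sequencing (snRNA-seq), had 2 libraries per strain, and each library combined tissue of about 2 animals, so a library is a pool and not a single animal. Nuclei for snRNA-seq, unlike those for snATAC-seq, were sorted for NeuN, which marks neurons. Of the 24 samples of the series 8 were used, and the 16 methylation samples were not analysed here. The Exc-CA3 columns held 4008 of 27206 snATAC-seq nuclei, with totals between 14193352 and 21265101 counts per library, and 2191 of 30880 snRNA-seq nuclei, with totals between 4267129 and 7195661 counts. D2 supplied 54.2% of the Exc-CA3 snATAC-seq counts that entered the choice of members.

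CA3 pyramidal neurons receive the mossy fibres of the dentate granule cells, excite one another through recurrent collaterals, and send the Schaffer collaterals to CA1. Peaks of snATAC-seq mark DNA that is free of nucleosomes, at promoters and at distal elements such as enhancers, and distal elements are the more cell-type-specific kind. Basic helix-loop-helix (bHLH) factors of the NeuroD and Neurogenin families, which drive the differentiation of excitatory neurons, bind E-boxes, short sites that begin with CA and end with TG, and CAGATG is the form they prefer.

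Marker levels in the snRNA-seq counts describe the Exc-CA3 label. The authors named the snRNA-seq clusters by their markers and transferred the names to snATAC-seq nuclei, so these levels are no independent check. All 8 CA3 pyramidal markers (Grik4, Iyd, Cpne4, Cdh24, Homer3, Coch, Nectin3 and Trps1) were highest in Exc-CA3 among the 6 groups. Their summed level was 2551 CPM in Exc-CA3 against 384 in Exc-CA1, 753 in Exc-DG, 454 in Inh-MGE, 714 in Inh-CGE and 870 in NN. Trps1 separated Exc-CA3 little, at 729 CPM against 672 in NN and 732 in Exc-Cdh12, an excitatory cluster outside the 6 groups. Coch stood at 11.7 CPM in Exc-CA3 and 11.1 CPM in Exc-Cdh12. None of the 7 CA1 markers, 3 dentate granule markers, 11 interneuron markers or 13 non-neuronal markers was highest in Exc-CA3. Of 6 CA2 markers, Amigo2 and Ccdc3 were highest in Exc-CA3 (10.9 and 15.6 CPM), as was Csf2rb2, 1 of 4 mossy cell markers (7.24 CPM). In Exc-CA3 the CA2 list summed to 49.1 CPM, below the 154 CPM in Exc-DG. Of the latter, Ntf3 gave 73.3 CPM and Pcp4 57.1 CPM. The mossy cell list summed to 86.1 CPM, close to the 86.5 CPM in NN, where Calcrl alone stood at 74.9 CPM. The next group for Amigo2 and Ccdc3 was NN, at 1.93 and 3.21 CPM. In Exc-CA3 the mossy cell markers Calb2, Calcrl and Csf2rb2 stood at 9.64, 22.3 and 7.24 CPM. In Exc-CA1 and Exc-DG they reached at most 0.607, 7.88 and 0.295 CPM. Ajap1 was lower in Exc-CA3 (46.9 CPM) than in either. In snRNA-seq, Exc-CA3 nuclei carried CA3 markers. The part of CA2 or mossy cells among these nuclei and in the member peaks was not tested.

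The sequences of 6 member peaks are shown, 5 of them picked because they hold an E-box described below. The 300 bases around each peak's centre are given from RefSeq GRCm38, 5′ to 3′ on the forward strand, with the E-box CAGATG and its reverse complement CATCTG in capitals. The first 3 peaks had some of the largest ratios of Exc-CA3 to the next group, the Mrps23 peak is among the 6 highest, the Cpne4 peak lies in a CA3 marker gene, and the Nectin3 peak, also of large ratio, is shown because it holds no such E-box. Of the 15 peaks named here for level, ratio or marker gene, 10 hold it in these bases, and those of Abcc12, Osbpl3, Nectin3, Osr1 and Grik4 do not.
Dnajb9 peak, chr12:42947804-42948103: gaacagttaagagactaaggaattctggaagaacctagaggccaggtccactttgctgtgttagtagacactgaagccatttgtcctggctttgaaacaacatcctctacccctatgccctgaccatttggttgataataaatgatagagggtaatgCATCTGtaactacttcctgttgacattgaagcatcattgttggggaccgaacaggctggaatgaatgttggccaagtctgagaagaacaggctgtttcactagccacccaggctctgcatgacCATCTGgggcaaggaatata
Tspan11 peak, chr6:127863672-127863971: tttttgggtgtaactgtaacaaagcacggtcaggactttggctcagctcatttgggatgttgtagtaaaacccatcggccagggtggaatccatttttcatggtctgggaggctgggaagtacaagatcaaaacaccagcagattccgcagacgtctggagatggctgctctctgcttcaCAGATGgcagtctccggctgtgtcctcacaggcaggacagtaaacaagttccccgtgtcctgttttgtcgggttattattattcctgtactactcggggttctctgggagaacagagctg
Cacna1i peak, chr15:80306246-80306545: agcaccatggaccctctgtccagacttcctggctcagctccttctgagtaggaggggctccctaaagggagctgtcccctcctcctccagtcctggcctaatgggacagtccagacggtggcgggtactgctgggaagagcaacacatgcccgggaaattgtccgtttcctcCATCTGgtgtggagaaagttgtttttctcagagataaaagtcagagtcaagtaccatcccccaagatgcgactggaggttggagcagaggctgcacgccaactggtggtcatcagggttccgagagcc
Mrps23 peak, chr11:88226785-88227084: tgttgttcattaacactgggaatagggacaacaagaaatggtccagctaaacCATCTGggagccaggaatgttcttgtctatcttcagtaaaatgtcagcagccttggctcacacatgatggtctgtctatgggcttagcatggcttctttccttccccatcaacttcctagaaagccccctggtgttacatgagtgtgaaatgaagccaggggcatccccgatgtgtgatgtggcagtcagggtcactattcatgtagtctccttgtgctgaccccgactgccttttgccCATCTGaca
Cpne4 peak, chr9:104725338-104725637: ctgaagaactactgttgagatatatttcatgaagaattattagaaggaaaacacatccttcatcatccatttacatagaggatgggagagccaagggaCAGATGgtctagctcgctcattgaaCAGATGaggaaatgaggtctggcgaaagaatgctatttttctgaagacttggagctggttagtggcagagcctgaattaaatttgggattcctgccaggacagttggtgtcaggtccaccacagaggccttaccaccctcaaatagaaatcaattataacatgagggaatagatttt
Nectin3 peak, chr16:46567344-46567643: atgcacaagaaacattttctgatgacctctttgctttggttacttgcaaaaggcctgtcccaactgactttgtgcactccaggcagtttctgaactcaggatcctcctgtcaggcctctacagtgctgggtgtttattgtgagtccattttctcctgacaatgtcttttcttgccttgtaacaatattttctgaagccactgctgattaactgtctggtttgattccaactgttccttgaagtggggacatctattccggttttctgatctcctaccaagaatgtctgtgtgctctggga

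Each of the first 5 sequences holds at least 1 site in which the E-box, read as CAGATG, is followed by G. In Tspan11 and Cpne4 the capitals read CAGATG on the printed strand, and in Dnajb9, Cacna1i and Mrps23 they read CATCTG, the same site on the other strand. Peaks between genes are named here by the protein-coding gene with the nearest start site, which may lie far away: the Dnajb9 peak is 1262 kb from that start. A name is a label of place and does not say which gene a region acts on.

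Members were of moderate height. Their median Exc-CA3 level was 6.69 CPM, with a range from 5.0 to 24.3 CPM, below the median of 8.64 CPM for the 50273 peaks that reached 5 CPM in Exc-CA3, of which the members were 2.44%. Only 195 members reached 10 CPM and 3 reached 20 CPM. In the other groups the members' median level was 1.42 CPM in Exc-CA1, 0.994 in Exc-DG, 0.742 in NN, 0.703 in Inh-CGE and 0.613 in Inh-MGE, whereas the peaks of at least 5 Exc-CA3 CPM had medians between 4.90 and 8.08 CPM there. The median ratio of Exc-CA3 to the next group was 3.996 and the largest was 22.1. A total of 614 members lay between 3- and 4-fold, 402 between 4- and 6-fold and 211 at 6-fold or more. The next group was Exc-CA1 for 636 members, Exc-DG for 314, NN for 113, Inh-CGE for 90 and Inh-MGE for 74. At 166 members every other group was under 1 CPM.

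**Figure D1:**
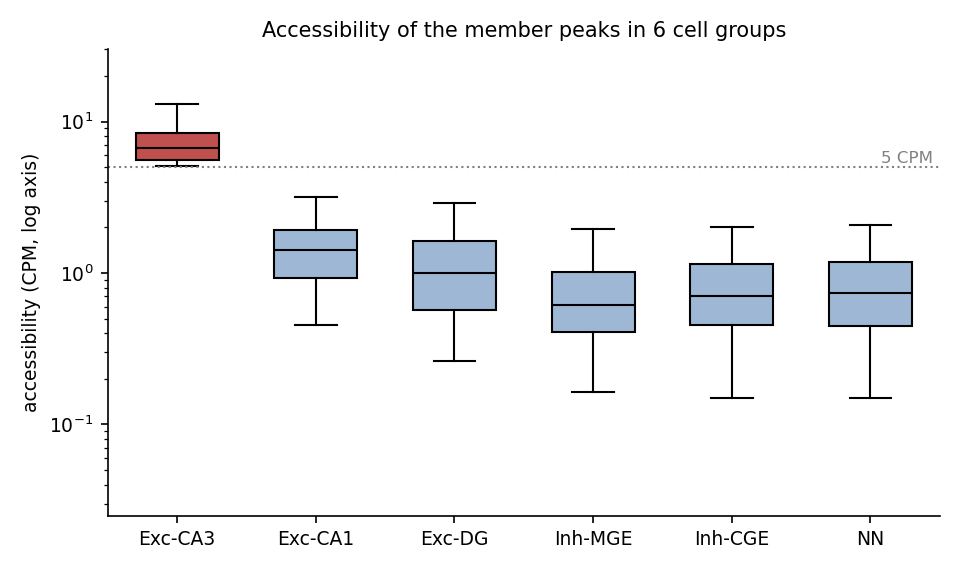
Levels of the 1227 members in each of 6 cell groups, in CPM on a log axis. Boxes span the quartiles with the median as a line, whiskers run from the 5th to the 95th percentile, and the dotted line marks the 5 CPM minimum; the Exc-CA3 median of 6.69 CPM stands above the other medians, the nearest being 1.42 CPM in Exc-CA1.

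Depth differed between the groups. The limit of 5 CPM stood for 349 counts in Exc-CA3, and a level 3-fold below it stood for 236 counts in Exc-CA1 but only 11.2 in NN, whose total was 6736466 counts. In NN, 31 members had 0 counts, which allows up to 3 counts, and 387 had 3 counts or fewer, so the rank of NN among the other groups is poorly fixed at these peaks. Just inside the 3-fold limit lay peaks in or near Zfp618, Marcks and Zfp648, with ratios of 3.00005, 3.00033 and 3.00111, and just outside it peaks near Syt6, Tenm4 and Fgf10, with ratios of 2.99841, 2.99931 and 2.99931. Just inside the CPM limit lay peaks in or near Slit1, Hopx and Tbl1xr1 with 349 counts each (5.002 CPM), and just outside it peaks in or near Sulf2, Pard3b and Sel1l with 348 counts (4.99 CPM). A further 4825 peaks met the 3-fold rule without reaching 5 CPM.

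The summed counts of the 4 Exc-CA3 libraries chose the members, so their levels by library are a description and no separate support. The members' median level was 6.54 and 6.69 CPM in the B6 libraries and 6.94 and 6.91 CPM in the D2 libraries. In each of the 4 libraries at least 1226 members were above all 5 pooled other groups, and 856 members reached 5 CPM in all 4. Applied to the pooled B6 libraries alone the rule found 1116 peaks, 890 of them members, and applied to D2 alone 1398 peaks, 1055 of them members. Members that met it in both strains numbered 753, and 35 met it in neither strain alone.

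The 6 highest members illustrate how the levels compare. The highest was in an exon of Mobp, a gene of oligodendrocyte myelin (chr9:120174120-120175098), with B6 levels of 25.6 and 24.3 CPM and D2 levels of 24.1 and 23.2 CPM. Its next group was NN at 6.38 CPM, and in B6 alone, where the highest other group stood at 9.06 CPM, it did not meet the rule. The Mobp transcript was highest in NN (346 CPM) and stood at 10.4 CPM in Exc-CA3. The Kbtbd2 peak (chr6:56805653-56806837) was at 20.3, 20.1, 20.8 and 23.7 CPM in the 2 B6 and 2 D2 libraries, against 6.36 CPM in Exc-CA1. The Mrps23 peak (chr11:88226290-88227578), near a gene of a mitochondrial ribosomal protein, measured 20.96, 21.07, 22.6 and 20.7 CPM, against 4.37 CPM in Inh-CGE. In these 3 peaks every Exc-CA3 library was above every other pooled group, and the strains' libraries overlapped at Mrps23 and not at Mobp or Kbtbd2.

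The remaining 3 of the 6 were near Unc5c, a receptor for netrin, in an intron of Camk1d, a calcium/calmodulin-dependent kinase, and near Osr1, a zinc finger transcription factor. The Unc5c peak (chr3:141397825-141398846) stood at 17.1, 19.7, 20.2 and 20.9 CPM with Exc-CA1 next at 6.42 CPM, close to the fold limit. The Camk1d peak (chr2:5454493-5455301) stood at 19.8, 17.8, 20.4 and 19.6 CPM, and the Osr1 peak (chr12:9487492-9489016) at 17.9, 19.4, 17.4 and 20.3 CPM. The strains' libraries overlapped at Camk1d and Osr1 and not at Unc5c. In edgeR's quasi-likelihood test of D2 minus B6, none of these 6 peaks reached an adjusted p under 0.05 (log2 fold changes from -0.03 to 0.22, adjusted p from 0.185 to 0.910), and with DESeq2 none did either.

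Among members of at least 10 CPM, the 6 largest ratios were 13.9 near Dnajb9 (a co-chaperone of the endoplasmic reticulum), 12.1 near Abcc12 (an ABC transporter), 11.5 near Tspan11 (a tetraspanin), 10.7 in Cacna1i (a T-type calcium channel subunit), 10.4 near Osbpl3 (an oxysterol-binding protein) and 9.93 near Nectin3 (a cell adhesion protein). The Dnajb9 peak stood at 10.3 and 11.5 CPM in B6 and 10.8 and 9.69 CPM for D2, and its highest other group, Exc-DG, at 0.754 CPM. The Cacna1i peak, in an intron 18.9 kb from a start site, stood at 11.6 and 11.0 CPM in B6 and 13.0 and 11.5 CPM for D2, with Exc-CA1 next at 1.10 CPM. The Nectin3 peak stood at 10.6 and 11.1 CPM in B6 and 13.2 and 12.2 CPM in D2, with NN next at 1.19 CPM, and Nectin3 was the nearest start for 4 members. The strains' libraries overlapped at Dnajb9 and Cacna1i and not at Nectin3 (log2 fold change 0.27, standard error 0.11, adjusted p = 0.178, edgeR). Of these 6 genes only Cacna1i and Nectin3 had their highest snRNA-seq level in Exc-CA3.

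The rule left out 3 excitatory clusters, Exc-Gpc6, Exc-Cdh12 and Exc-ENT, and some members were open there as well. Exc-Gpc6 was above Exc-CA3 at 42 members, Exc-Cdh12 at 11 and Exc-ENT at 5. The Mobp and Kbtbd2 peaks were among the high ones in Exc-Gpc6, at 24.9 and 17.0 CPM, while the Mrps23 peak stood at 1.08 CPM there. The Marcks peak, at 12.2 CPM in Exc-CA3, reached 25.4 CPM in Exc-Cdh12. Medians over the members were low in all 3 clusters, between 0.668 and 0.728 CPM, and 927 members were also at least 3-fold above each of the 3. When each of the other cell types was taken singly rather than in groups, 472 members met the 3-fold rule against each.

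Members lay away from promoters. Only 28 members (2.28%) had their centre within 1 kb of an annotated start site, compared with 8.18% of all peaks and 27.3% of peaks of at least 5 CPM. Of the members 58.8% were intergenic, 35.7% in introns and 3.18% in exons, against 42.9%, 45.1% and 3.77% of all peaks. Their median distance to the nearest start was 51.9 kb, compared with 28.4 kb for all peaks and 12.7 kb for peaks of at least 5 CPM. Peaks chosen by the same rule for Exc-CA1 (968 peaks) and Exc-DG (1466 peaks) were placed much like the members, with 2.07% and 2.32% within 1 kb of a start, and peaks chosen for NN (2569 peaks) more often near a start, with 15.5%. No member lay in a 2 kb window of more than 40 CpG sites per kb, where 3.18% of all peaks and 16.1% of peaks of at least 5 CPM did, and the highest density at a member was 36 CpG per kb. No peak of the Exc-CA1 or Exc-DG set did either, with highest densities of 31 and 36 CpG per kb. The share was 0.0821% in the Inh-MGE set, 0.178% in the Inh-CGE set and 4.59% in the NN set. Median GC content of the central 300 bases was 45%, against 46.3% in all peaks. Most members stood alone, since 1107 had no other member within 50 kb, while 51 pairs and 6 runs of 3 did. The runs of 3 lay in or near Spock1, Peak1, Cacna1i, Aldh3a1 and Aldh3a2, Zfp648 and Cacna1e, and Cldn24 and Wwc2.

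Member sequences stood out for 1 of 28 motifs. The motifs were counted on both strands in the central 300 bases, by exact match to their letters. The NeuroD E-box CAGATG was in 690 members (56.2%), against 32.1% of all peaks and 29.9% of peaks of at least 5 CPM. In peaks chosen by the same rule for other groups it was in 31.2% for Exc-CA1, 33.6% for Exc-DG, 42.2% for Inh-MGE, 24.0% for Inh-CGE and 22.2% for NN. It was the only motif whose share in members differed from that in all peaks by more than 5 percentage points upward, and the next largest excess was 2.77 points, for STAT (TTCNNNGAA, 12.7% against 9.94%). The share was 57.8% of members against 33.6% of all peaks at a GC content of 40 to 50%, and among peaks over 2 kb from a start site it was 55.5% of members against 36.3% of peaks of at least 5 CPM. At least 2 copies were in 15.3% of members and in 5.72% of all peaks. A match is a stretch of letters and was not tested for binding.

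The remaining motifs had similar or lower shares in members. Shares in members and in all peaks were 26.4% and 23.7% for MEIS (TGACAG), 11.7% and 9.03% for homeobox (TAATTA), 5.95% and 4.29% for FOX (TGTTTAC), 5.46% and 4.55% for LEF/TCF (ATCAAAG), and 15.4% and 14.5% for AP-1 (TGANTCA). AP-1 was in 20.7% of the Exc-CA1 set and 9.89% of the Exc-DG set. The largest deficits in members were for SP (GGGCGG), with 2.69% and 7.65%, the Ascl E-box (CAGCTG), with 17.1% and 20.5%, and KLF (CACACCC), with 4.32% and 6.92%. The POU octamer (ATGCAAAT) was in 1.30% of members and 7.95% of the Exc-CA1 set. MEF2 sites were in 2.12% of members, 4.91% of the Exc-DG set and 9.79% of the Inh-CGE set, and CTCF sites in 3 members (0.244%) and 1.19% of all peaks. Members and all peaks held ZBTB18 (CAGATGTG, which contains the NeuroD E-box) at 1.55% and 2.30%, the E-box CACGTG at 3.26% and 4.45%, SOX (ACAATGG) at 4.16% and 3.92%, RFX (GTTGCCATG) at 0.407% and 0.782%, and MAF (TGCTGACT) at 1.55% and 2.03%. The others were NR4A (AAAGGTCA) at 1.55% and 1.11%, TEAD (ACATTCCA) at 1.87% and 1.56%, ROR (TAGGTCA) at 2.20% and 2.11%, EGR (GTGGGCG) at 1.96% and 2.23%, T-box (AGGTGTGA) at 0.978% and 1.28%, CRE (TGACGTCA) at 0.163% and 0.365%, ETS (CCGGAAGT) at 0.0815% and 0.451%, EBF at 0.733% and 0.644%, SRF CArG at 1.47% and 1.51%, and the NFI palindrome at 0% and 0.0499%.

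**Figure D2:**
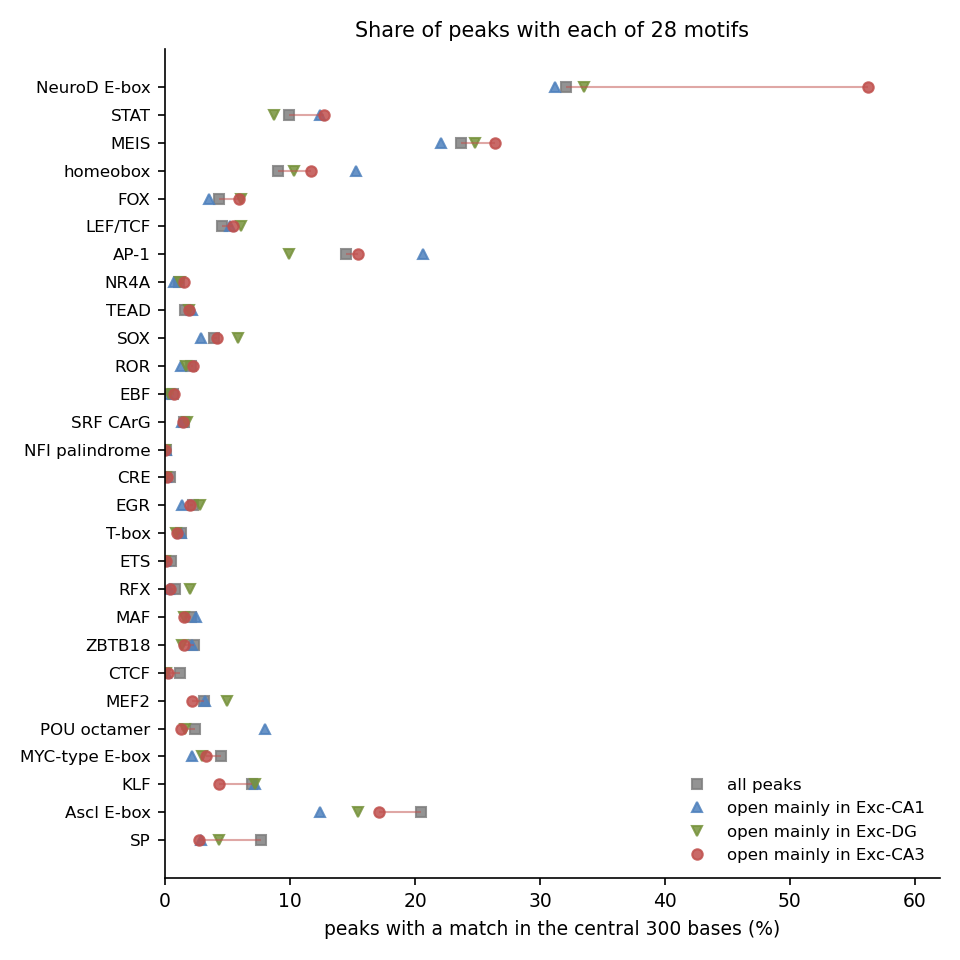
Share of peaks with each of 28 motifs in the central 300 bases, in percent, for members (circles), all peaks (squares) and the peaks chosen by the same rule for Exc-CA1 and Exc-DG (triangles). A line joins members to all peaks, and the longest line is that of the NeuroD E-box, from 32.1% to 56.2%.

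The base after the E-box separated the members further. Among the 10 possible E-boxes CAGATG was the most frequent in members, and the next by ratio to all peaks was CATATG, at 13.2% against 9.41%, which was more frequent in the Exc-CA1 set (24.0%). When CAGATG was split by its next base, a split made after the first counts were seen, CAGATGG was in 489 members (39.9%) against 13.5% of all peaks. The same letters were in 12.4% of the Exc-CA1 set, 15.3% of the Exc-DG set, 10.3% of the Inh-MGE set, 5.52% of the Inh-CGE set and 8.37% of the NN set. CAGATGA was in 9.37% of members and 7.23% of all peaks, CAGATGC in 9.54% and 8.10%, and CAGATGT in 7.82% and 7.73%. In the Inh-MGE set, where CAGATG was also frequent, the base after it was more often T (17.5%) than G. Thus the difference between members and all peaks lay mostly in the form with G, which stands at least 1 time in each of the first 5 sequences above.

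The share with CAGATGG increased with the contrast of Exc-CA3 to the other groups, also among peaks that are no members. Of peaks over 2 kb from a start and of at least 5 Exc-CA3 CPM, 14.7% held it where Exc-CA3 was below another group (21944 peaks). It was held by 22.9% at ratios of 1 to 1.5, by 27.7% at 1.5 to 2 and by 32.5% at 2 to 3. In members away from starts it was held by 34.3% at 3 to 4, by 41.3% at 4 to 6 and by 48.1% at 6 and over (208 peaks). These peaks share libraries, and the ratio is the quantity that chose the members, so the series is given as a description. By place, the form with G was in 60.7% of the 28 members near a start, 43.6% of those in exons, 42.2% in introns and 37.4% between genes. Members with it had a median of 6.69 CPM and members without it 6.67 CPM in Exc-CA3, with median ratios of 4.18 and 3.87.

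The sites gathered near the middle of the peaks. Per 100 members, CAGATGG sites per 50 bases reached 11.3 between 50 and 100 bases toward higher coordinates from the centre. Within 300 bases of the centre 615 sites lay toward higher and 260 toward lower coordinates, with a median of 71.5 bases toward higher coordinates. The same lean was seen for CTCF sites in the 50273 peaks of at least 5 CPM, with 929 sites toward higher and 488 toward lower coordinates, and the cause of this offset was not tested. Moving the window 100 bases toward higher coordinates gave CAGATG in 62.1% of members, 31.4% of peaks of at least 5 CPM, 32.1% of the Exc-CA1 set and 36.0% of the Exc-DG set.

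**Figure D3:**
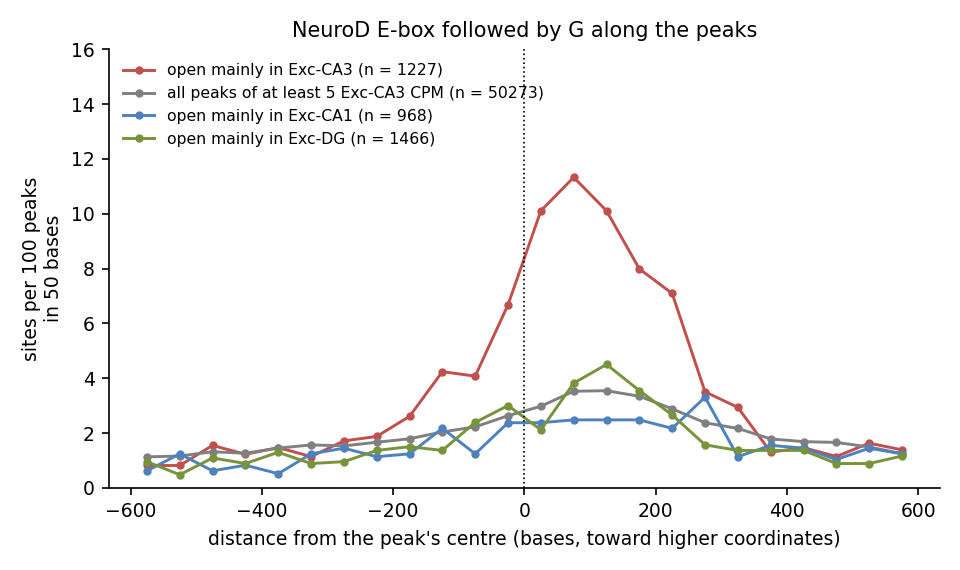
Sites of CAGATG followed by G per 100 peaks in steps of 50 bases, against the distance from the peak's centre in bases, positive toward higher coordinates. The line of the 1227 members reaches 11.3 sites per 100 peaks between 50 and 100 bases, while the lines of all peaks of at least 5 CPM and of the Exc-CA1 and Exc-DG sets stay lower near the centre.

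Transcripts of bHLH factors that can read such E-boxes were present in Exc-CA3 at levels close to those in Exc-CA1. Neurod6 stood at 70.5 CPM in Exc-CA3, 64.6 in Exc-CA1 and 5.06 in Exc-DG. Neurod2 stood at 28.1, 29.1 and 38.4 CPM in these groups, and Neurod1 at 3.71, 2.62 and 6.17 CPM. In Exc-CA3 the Neurod6 libraries read 61.6 and 52.0 CPM for B6 and 93.0 and 81.8 CPM for D2, without overlap (log2 fold change 0.60, standard error 0.11, adjusted p = 0.000466, edgeR). Their part in the openness of the members was not tested.

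Genes that held members were more often highest in Exc-CA3 among the 6 groups, by snRNA-seq level in CPM. A gene held a peak whose centre lay in it or within 2 kb of its ends, and 518 members lay in 460 protein-coding genes, with 1 member in 415 genes, 2 in 36 and 3 or more in 9. Of 15152 genes with a level of at least 1 CPM, 9.27% were highest in Exc-CA3, and of the 415 among them that held at least 1 member 96 were (23.1%). The share was 20.9% for 373 genes with 1 member, 33.3% for 33 genes with 2, and 7 of 9 for genes with 3 or more (77.8%). Genes that held peaks of the Exc-CA1 and Exc-DG sets were highest in Exc-CA3 in 9.51% and 7.87% of cases, genes with a distal peak of at least 5 CPM and no member in 11.2%, and genes nearest to an intergenic member in 14.0%. At least 1 log2 unit above every other group, on the log2(CPM + 1) scale, were 17 of the 415 genes (4.10%) against 0.561% of all genes. The median difference of Exc-CA3 from the highest other group was -0.59 for genes with 1 member, -0.34 with 2 and 0.85 with 3 or more, compared with -0.62 for genes with none. The snRNA-seq clusters lent their names to the snATAC-seq nuclei, so these levels are a description with no test, and most of the 415 genes were higher in another group.

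**Figure D4:**
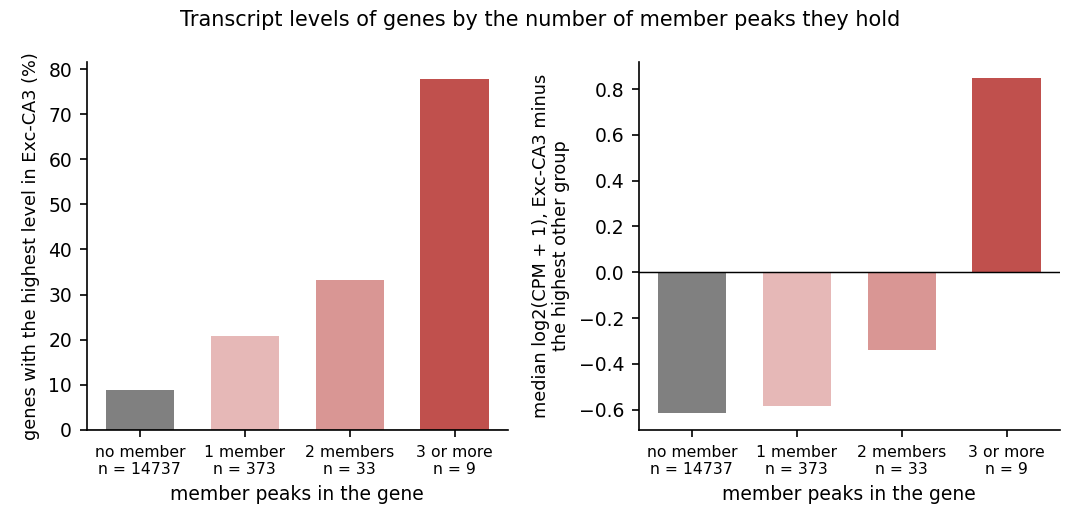
Left, percentage of genes whose snRNA-seq level was highest in Exc-CA3 among 6 groups, and right, the median difference of Exc-CA3 from the highest other group on the log2(CPM + 1) scale, for genes with no, 1, 2 and 3 or more members. Bars start at 0 and rise from 8.88% to 77.8% on the left, and from -0.62 to 0.85 on the right, where the last bar stands for 9 genes.

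Of the 9 genes with 3 or more members, 7 were highest in Exc-CA3. Spock1, which encodes a secreted proteoglycan, held 6 members, the highest (chr13:57523585-57524964) with accessibility of 14.6 and 12.9 CPM for B6 and 15.8 and 14.2 CPM for D2. Its transcript was at 949 CPM in Exc-CA3 against 470 in Inh-CGE, the next group. Cpne4, a calcium-dependent lipid-binding copine and a CA3 marker, held 4 and stood at 612 CPM against 421 CPM in Inh-CGE. Kcnq5, a subunit of the M-type potassium channel, held 3 and its transcript read 3634 and 3444 CPM for B6 and 3810 and 3833 CPM for D2, above the 1353 CPM of Inh-CGE. Cacna1i held 3 members, with a transcript level of 78.5 CPM against 30.05 in Exc-CA1. In clusters outside the 6 groups, Cacna1i stood at 57.2 CPM in Exc-Cdh12, and Kcnq5 at 1983 CPM in Exc-Gpc6 and 1890 CPM in Exc-Cdh12. These levels were above the next groups given here and below Exc-CA3. Prkca (protein kinase C alpha) was at 1411 CPM against 784 CPM in Inh-CGE, Peak1 (a pseudokinase) at 254 CPM against 113 CPM in NN, and Cacna1c (an L-type calcium channel subunit) at 1454 CPM against 1360 CPM in Exc-DG. The exceptions were Pde4d, a cyclic AMP phosphodiesterase, which was highest in Inh-CGE (2462 CPM against 1401 in Exc-CA3), and Macrod2, which removes ADP-ribose from proteins and was highest in Exc-DG (2022 against 1305 CPM). Between strains, edgeR found lower D2 levels at adjusted p under 0.05 for Peak1, Pde4d and Macrod2 of these 9. Such calls were made for 12.9% of all transcripts tested and 25.4% of tested genes with members.

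Lists of genes for receptors, channels, adhesion and axon guidance held few members each. Of 6352 genes with a distal peak of at least 5 Exc-CA3 CPM, 6.85% held a member. Of 8 CA3 markers 3 did, Cpne4 (4 members), Grik4 (2) and Trps1 (1), and none of the CA1, CA2, mossy cell, dentate granule, interneuron or non-neuronal markers did. Such a distal peak was present in 5 of the 8 CA3, 5 of 7 CA1, 3 of 6 CA2 and 3 of 4 mossy cell markers. It was present in 0 of 3 dentate granule, 2 of 11 interneuron and 5 of 13 non-neuronal markers, so their lack of members says little. Grik4 encodes a kainate receptor subunit, and its higher member (chr9:42853529-42854228, intron) stood at 9.35 and 10.6 CPM in B6 and 8.51 and 10.3 CPM in D2. The highest Cpne4 member, printed above, stood at 12.5, 12.1, 12.1 and 11.8 CPM with Exc-CA1 at 3.95 CPM, and the Trps1 member (chr15:50801895-50802386, intron), in the gene of a GATA-type zinc finger factor, at 6.42, 6.62, 6.70 and 6.395 CPM. The strains' libraries overlapped at all 3. This Cpne4 member met the rule only when the strains were pooled. Its B6 and D2 pools, 12.3 and 11.9 CPM, were each less than 3 times the highest other group of the same strain (4.71 and 4.67 CPM). It was also open in Exc-ENT, a cluster outside the 6 groups (6.03 CPM).

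Among receptors of glutamate, 2 of 7 kainate receptor and Neto genes held members (Grik4 and Grik2), 1 of 10 AMPA and NMDA receptor subunits (Gria4) and 1 of 8 metabotropic receptors (Grm8). Among the 6 groups Grik4 was highest in Exc-CA3 (863 CPM against 390 in Exc-DG), whereas Grik2, Gria4 and Grm8 were highest in Inh-CGE, Inh-MGE and Exc-CA1. Outside the 6 groups Grik4 stood at 577 CPM in Exc-Gpc6. Grm8, at 336 CPM in Exc-CA1, was higher in Exc-ENT (985 CPM) and Exc-Gpc6 (613 CPM). Axon guidance held the most, with 9 of 44 genes and 14 members: the ligands Sema3c, Slit1 and Slit2 and the receptors Nrp2 and Robo1 had 2 each, and the receptors Unc5c, Unc5d, Dcc and Ephb1 had 1 each, all named after their counts were seen. Of these 44 genes 37 had a distal peak of at least 5 CPM. Among the 6 groups the Nrp2 transcript was highest in Exc-CA3 (223 CPM against 185 in Inh-CGE), while Robo1, Sema3c and Slit1 were highest elsewhere. In Exc-ENT, outside the 6 groups, Nrp2 stood at 236 CPM. Potassium channels had 3 of 30 (Kcnq5, Kcnb2 and Kcnip4), synaptic adhesion 2 of 23 (Nrxn3 and Afdn) and neuronal transcription factors 2 of 53 (Zbtb20 and Trps1). Zbtb20, a zinc finger repressor of hippocampal pyramidal neurons, stood at 3110 CPM in Exc-CA3, 2902 in Exc-DG, 2202 in NN and 805 in Exc-CA1.

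The rule pooled the strains. The difference between them was tested by edgeR over all 298129 peaks with at least 10 counts in the 4 Exc-CA3 libraries. The test used the counts that chose the members, and a peak high in 1 strain could pass the rule through that strain. Shares of called members are therefore not free of the choice. All 1227 members were tested. At adjusted p under 0.05, 106 members (8.64%) were higher in D2, where the background over all peaks was 2.60%, and 29 (2.36%) were lower, where the background was 2.44%. Members are well covered, and peaks of at least 5 CPM as a whole had 6.27% higher and 2.01% lower. The median log2 fold change was 0.13 over members, 0.09 over peaks of at least 5 CPM and 0.000831 over all peaks. The share of higher calls rested on the peaks fitted together: when only peaks of at least 5 CPM were fitted, 66 members were higher and 50 lower (background 3.08% and 3.46%), so that 56.9% rather than 78.5% of the called members were higher in D2, and the median was 0.05. DESeq2 called 22 higher and 11 lower (background 0.662% and 0.804%). Both D2 libraries were above both B6 libraries at 436 members (background 18.9%) and below them at 203 (background 24.8%), while the libraries overlapped at 588. Of the 135 called members 134 had no overlap, with median log2 fold changes of 0.57 for the higher and -0.69 for the lower. A change of at least 1 log2 unit was found at 11 higher and 9 lower members.

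Most of these calls were lost without either D2 library. Without either B6 library edgeR called 68 and 82 members (background 2.79% and 3.14%), and without D2 library 2 or 3 it called 3 and 2 (background 0.0832% and 0.0420%), the lone D2 library being assumed to vary like the B6 libraries. The members' median log2 fold change was 0.12 without D2 library 2 and 0.14 without D2 library 3, close to the 0.13 with all 4. Of the 106 higher members 53 met the rule for members in D2 alone and 43 in both strains, and of the 29 lower ones 15 met it in B6 alone and 8 in both. CAGATGG was in 35.6% of the 135 called members and in 40.4% of the others. Sequence differences between the strains were not analysed here, and reads of D2 were mapped to a reference with D2 bases swapped in, so their part in these differences was not tested.

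The member with the largest difference lay in Armc6 (chr8:70224454-70224854), an armadillo-repeat gene. It was 0.523 kb from the nearest annotated start site of any protein-coding transcript and 9.81 kb from the start of the Armc6 gene. Its 2 B6 libraries read 0.563 and 0.775 CPM and its 2 D2 libraries 10.1 and 9.92 CPM, without overlap (log2 fold change 3.96, standard error 0.23, adjusted p = 3.45e-34, edgeR). In B6 it was below NN, at 2.27 CPM, and in D2 it was above every other group, the nearest being Exc-CA1 at 1.72 CPM. NN had the lowest depth of the 6 groups, so the order of the groups in B6 is poorly fixed. The Armc6 transcript was at 16.3 and 14.1 CPM in B6 and 19.5 and 19.5 CPM in D2 (log2 fold change 0.33, adjusted p = 0.151, edgeR).

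An intron of Manba, the lysosomal beta-mannosidase (chr3:135489640-135490103), held a member at 2.54 and 2.47 CPM in B6 and 9.12 and 11.2 CPM for D2 (log2 fold change 2.08, standard error 0.17, adjusted p = 2.18e-21, edgeR). Its transcript moved the other way, from 30.3 and 27.5 CPM in B6 to 7.88 and 6.80 CPM in D2 (log2 fold change -1.99, adjusted p = 1.29e-07, edgeR). An intron of Fam19a5, which encodes a secreted protein, held a member (chr15:87562887-87563266) at 4.11 and 3.59 CPM in B6 and 10.1 and 12.2 CPM in D2 (log2 fold change 1.58, standard error 0.15). A member near Slc4a7, a bicarbonate transporter gene (chr14:14670977-14671612), stood at 3.49 and 3.10 CPM in B6 and 8.39 and 9.64 CPM in D2 (log2 fold change 1.497, standard error 0.17). At all 4 the D2 libraries were above the B6 libraries and only the D2 libraries met the rule.

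Of the members lower in D2, the largest difference was near Fbxw25 (chr9:109670715-109672107), at 10.3 and 10.9 CPM in B6 and 1.27 and 1.46 CPM in D2 (log2 fold change -2.89, standard error 0.19, adjusted p = 4.54e-29, edgeR). Its central 300 bases are 96.3% repeat-masked, and the part of other copies of the repeat was not tested. The peak near Mrpl15, a mitochondrial ribosomal gene (chr1:4747276-4748489), stood at 8.62 and 9.65 CPM in B6 and 2.17 and 1.46 CPM in D2 (log2 fold change -2.31). Near Slc20a1, a phosphate transporter gene (chr2:129240560-129241629), the values were 13.6 and 12.2 CPM in B6 and 4.11 and 4.33 CPM in D2 (log2 fold change -1.57). Near Ankfn1 (chr11:89861469-89862791) they were 9.47 and 9.09 CPM in B6 and 3.56 and 2.92 CPM in D2 (log2 fold change -1.49). At all 4 the B6 libraries were above the D2 libraries and only B6 met the rule. Without D2 library 2 or 3, Armc6 (adjusted p = 0.0319 and 0.0346) and Fbxw25 (0.0370 and 0.0474) stayed under 0.05 in edgeR, Manba lost it without library 3 (0.0677), and the other 5 lost it without either (adjusted p from 0.0506 to 0.104). The changes of these peaks kept their direction, and that of Ankfn1, for example, was -1.63 and -1.33 on the log2 scale.

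**Figure D5:**
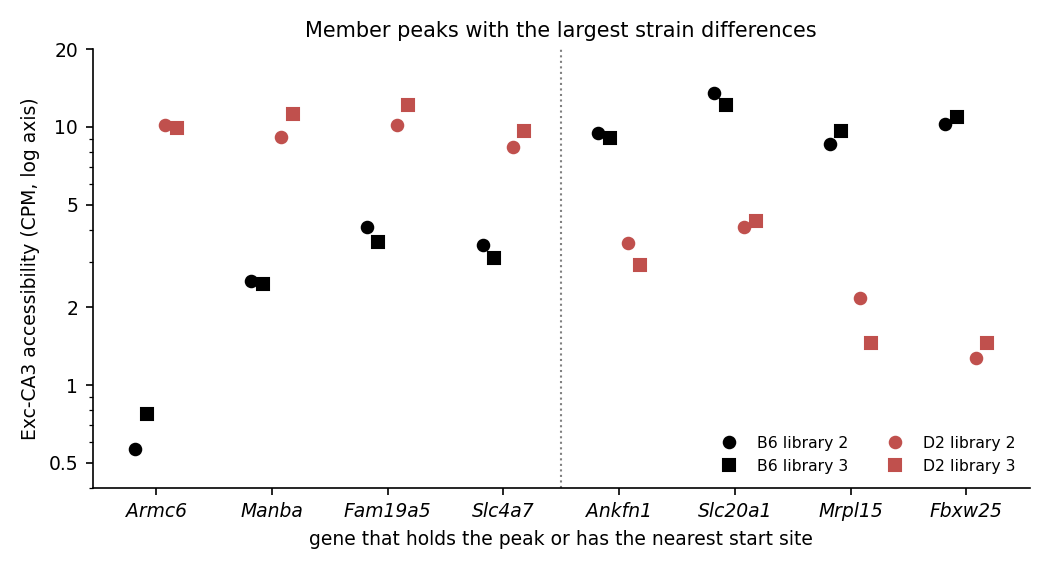
Exc-CA3 accessibility, in CPM on a log axis, of the 8 members with the largest strain differences by the naming rule, with 1 symbol per library (black for B6, red for D2, circles for library 2 and squares for library 3). Left of the dotted line both D2 libraries lie above both B6 libraries, most widely at Armc6 (9.92 and 10.1 against 0.563 and 0.775), and right of it both lie below.

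Transcripts of genes that held members were compared between the strains in the Exc-CA3 snRNA-seq libraries. Of 378 such genes tested by edgeR, 29 (7.67%) were higher in D2 and 96 (25.4%) lower, where the background over 16337 transcripts was 19.2% higher and 12.9% lower. Among the 5175 tested genes with a distal peak of at least 5 CPM, 9.49% were higher and 16.8% lower. DESeq2 called 11 of the genes with members higher and 58 lower (background 10.5% and 4.58%). Leaving out B6 library 2 or 3, or D2 library 2 or 3, gave 96, 100, 118 and 90 called genes with members (background 27.9%, 26.7%, 25.5% and 24.3%). The same lean was seen in genes that held peaks of the Exc-CA1 set (5.52% and 26.2% of 290) and of the Exc-DG set (8.93% and 23.2% of 448), so it was not seen only in genes with members, and the difference between these sets was not tested. Median log2 fold changes were -0.12 over genes with members and 0.05 over all transcripts. A total of 38 called members lay in genes whose transcript was tested, and those named below were picked after their values were seen. In 19 of them peak and transcript had the same sign, and of the 14 whose transcript was also called 7 had the same sign. Both were lower in D2 for Hjurp, Tdrd5, Unc5c (a member within the gene) and Adamtsl1, and both were higher for Unc5d, Iqgap2 and Fam111a. Opposite signs were found for Manba, Dtwd1, Schip1, Gabra5, Gfra1, Cadps and Atp8a2. With DESeq2 the transcript calls of Adamtsl1, Fam111a, Unc5c and Atp8a2 did not pass (adjusted p = 0.470, 0.0516, 0.0975 and 0.0556).

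Schip1 had the largest transcript difference of these 14, at 2260 and 2087 CPM in B6 and 70.2 and 80.9 CPM in D2 (log2 fold change -4.88, standard error 0.09, adjusted p = 1.35e-16, edgeR), while its called member was higher in D2 by 0.90 on the log2 scale (adjusted p = 3.55e-05, edgeR). Unc5d, a netrin receptor gene, rose in transcript by 0.77 (334 and 301 CPM for B6, 471 and 636 CPM for D2), and its member rose by 0.40 on the log2 scale. Hjurp, which encodes a chaperone of the centromeric histone, had a transcript at 15.8 and 17.2 CPM in B6 and 4.84 and 6.09 CPM for D2, and its member changed by -1.28 on the log2 scale (adjusted p = 3.24e-20, edgeR). Against the 19.2% higher and 12.9% lower of all transcripts, edgeR called 1 gene higher and 10 lower of 29 potassium channels tested, 2 higher and 10 lower of 38 axon guidance genes, 1 higher and 7 lower of 23 adhesion genes and 5 higher and 7 lower of 46 transcription factors. DESeq2 called, in either direction, 6 potassium channels, 5 axon guidance genes, 8 adhesion genes and 6 transcription factors. Of 6 metabotropic glutamate receptors edgeR called 3 lower and of 9 AMPA and NMDA receptor subunits 1 lower, and DESeq2 called none of either list. None of 7 kainate receptor and Neto genes passed in edgeR or in DESeq2, and 2 had an unadjusted p under 0.05.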

How the data were processed

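The authors aligned snATAC-seq and snRNA-seq reads to mm10 (GRCm38), with D2 bases swapped in for D2, and the submitters' processing notes name Cell Ranger 6.0.2, Cell Ranger ATAC 2.0.0 and Seurat 4.0.5. They called peaks per sample with MACS, merged them, removed doublets in both assays with DoubletFinder, transferred snRNA-seq cell-type names to snATAC-seq nuclei, and deposited raw counts per peak or gene summed over the nuclei of each cell type and library. The deposited count columns number libraries 2 and 3 and the labels number replicates 1 and 2, so columns were placed by strain only.

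Here counts were summed into 6 groups and scaled to CPM. D2 minus B6 was tested with the quasi-likelihood test of edgeR 4.0.16 (TMM normalization, Benjamini-Hochberg adjustment over all peaks or genes tested) in R 4.3.3. Peaks needed at least 10 counts over the 4 libraries, and transcripts had to pass edgeR's filterByExpr. Alternatives were DESeq2 1.42.0, RLE normalization, a replicate block and other count filters. The test was checked on simulated data. Each library was a separate tube of pooled tissue, so p-values measure the spread between 2 pools per strain and not between animals. Other steps used Python 3.11.15, pandas 2.3.3, pysam 0.24.0 and matplotlib 3.10.9. Genes are from GENCODE vM21 and sequences from RefSeq GRCm38. Named peaks are the 6 highest members, the 6 with the largest ratio at 10 CPM or more, the 4 called in each direction with the largest change at a mean of 5 CPM or more, and the highest in each CA3 marker gene. Members, lists and motifs were chosen with earlier results of these data known. The 0-count limit of 3 covers counting error only.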

Additional observations from a re-analysis of the deposited data

Results flagged for a closer look

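The Armc6 peak differed between the strains in its place among the cell groups. In B6 the pooled Exc-CA3 level was 0.657 CPM, below the highest other group (2.27 CPM in NN), and in D2 it was 10.0 CPM, above the highest other group (1.72 CPM in Exc-CA1). In B6 the peak was low in the remaining groups too. Inh-MGE stood at 0.869, Inh-CGE at 0.653, Exc-DG at 0.592 and Exc-CA1 at 0.569 CPM. NN had the lowest depth of the 6 groups, so the order of the groups in B6 is poorly fixed. The strain difference itself was tested in Exc-CA3 by edgeR (log2 fold change 3.96, adjusted p = 3.45e-34). Of the 1227 members, 1 was below another group in B6 and 0 were in D2. The cause was not tested.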

How the results depend on the processing

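Members numbered 3107 at a 2-fold rule, 613 at 4-fold, 195 at 10 CPM and 472 when every other cell type was taken singly. Leaving out 1 library gave 1191 to 1309 members. The share within 2 kb of a start was 3.75%, and CAGATG was in 41.7% of members in the central 200 bases and in 62.1% when the window was moved 100 bases, a choice made after seeing the data. Called members fell from 135 to 33 with DESeq2 (22 higher, 11 lower in D2), ranged from 2 to 82 without 1 library (1 to 64 higher, 1 to 20 lower), and split 66 to 50 when only peaks of at least 5 CPM were fitted. Called genes that hold members fell from 125 to 69 with DESeq2 (11 higher, 58 lower, against 10.5% and 4.58% of all transcripts) and ranged from 90 to 118 without 1 library, where 24.3% to 27.9% of all transcripts were called. No result changed direction past its threshold, and the causes of the shifts were not tested. Of the alternatives for single peaks and genes, 370 stayed on the same side, 20 became weaker and 1 became stronger. All 17 other values that moved were shares of members with a motif.

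With the replicate block the members called numbered 142 (114 higher and 28 lower, against 2.89% and 2.51% of all peaks) and the genes 134 (33 higher and 101 lower, against 19.99% and 13.6% of all transcripts). Same-numbered libraries deviated together only weakly (r = 0.027 for accessibility and 0.0315 for transcripts). With 2 libraries per strain this does not show whether they share a batch. NN depth limits its levels most, and 2 libraries per strain limit every strain comparison.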
